A study of Rattus norvegicus with 9 samples.

Results

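Neural progenitor-like cells (NPCs) made from rat bone marrow mesenchymal stem cells (MSCs) with bFGF, the basic fibroblast growth factor, and EGF, the epidermal growth factor, were compared here with the untreated MSCs, gene by gene, in 3 mRNA-seq libraries of each. These are 6 of the 9 libraries of the series, the other 3 being of cells that also received insulin-like growth factor 1 (IGF-1). A gene was taken into the comparison when it reached 1 FPKM (fragments relative to transcript length and library size, the unit of the deposited values) in all 3 libraries of at least 1 of the groups. This held for 11150 of the 26249 genes in the files, 6601 of them with a gene ID and 4549 known as overlapping annotated transcripts alone. Among genes with a symbol, those just inside the line were Mapk13 and Sfxn5, with a lowest value of 1.004 and 1.006 in their higher group, and those just outside were Smad9, at 1.000 after rounding up, and Adora2b, at 0.995.

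The MSCs were cells of passage 3 from the bone marrow of 3 Sprague-Dawley rats, 4 weeks old. The NPCs were derived, per the study, from the MSCs of these 3 rats. They were kept for 3 days in NeuroCult NS-A proliferation medium with both factors, each at 20 ng/ml. In the ultra-low attachment plates used they formed floating spheres. No library of cells moved to that medium and those plates without the factors was analysed here, so growth factors, medium and suspension culture cannot be told apart in any value below. In bulk RNA, fewer cells of a type and less RNA per cell cannot be told apart either. Replicate numbers were not tied to single rats in the labels, so that the p-values measure the spread between libraries.

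EGF binds the receptor tyrosine kinases of the ErbB family and bFGF those of the FGF receptor family, and both activate the Ras, Raf, MEK and ERK cascade. ERK induces immediate early transcription factors such as the Egr family, together with the AP-1 proteins, which in turn control growth, secreted proteases and feedback inhibitors. MSCs are adherent stromal cells with an actin-rich, contractile cytoskeleton and a heavy output of extracellular matrix, and neural progenitors are usually grown as neurospheres in the same pair of factors.

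Depths implied by the confidence intervals of the FPKM were 41.9 to 51.1 M reads for the NPC libraries and 46.0 to 55.0 M for the MSC libraries. The libraries of a group lay close to each other, with a median standard deviation over genes of 0.233 for NPCs and 0.225 for MSCs on the log2 scale. Single-exon unannotated transcripts within introns took 2.93 to 5.01% of the implied reads of the NPC libraries and 0.76 to 0.962% of those of the MSC libraries. They were left out of the gene values, and their part in the results was not tested. In 83 of the tested genes a library stood at 0 while another of the same group reached 1 FPKM or more, so that a 0 can be a failed estimate.

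Of the 11150 genes, 10910 were tested, and the other 240 had no annotated transcript of 300 bases. In the NPCs, 1092 genes rose and 1051 fell, where a call needed an adjusted p of 0.05 or less (limma, Benjamini-Hochberg) and a change of 1 or more on the log2 scale. These are 10% and 9.63% of the genes tested, or 19.6% in all, the background over genes whatever the source of their names. Over all 13677 genes of the fit, those under 1 FPKM included, 11.6% rose and 9.85% fell, 21.5% in all. Over the 10910 genes the median log2 fold change was −0.02. The called changes had a median size of 1.56 on the log2 scale, and 154 rises and 138 falls were of 3 or more. The 3 NPC libraries lay wholly above the 3 MSC libraries for 26.4% of the genes and wholly below for 24.0%, and 5103 genes had an unadjusted p of at most 0.05.

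Calls were made both among genes expressed in both conditions and among genes that crossed 1 FPKM. Of 9728 genes tested that reached 1 FPKM in both, 662 rose and 735 fell. Of the 726 that reached it in the NPCs alone, 430 rose, and of the 456 that reached it in the MSCs alone, 316 fell. The choice of these last groups fixed their direction, also for those of their genes that are named below. The balance also differed with the level of expression. Among the 1865 genes with a mean of at least 30 FPKM, 103 rose and 301 fell, with a median log2 fold change of −0.39. Among the 5713 genes under 10 FPKM, 782 rose and 510 fell, with a median of 0.19. After quantile normalisation, which forces the same distribution on each library, the counts were 153 and 186 for the first set and 557 and 630 for the second, with medians of −0.03 and 0.01. Quantile normalisation removes such leans by its design, so its counts cannot test them. Without rescaling, 108 genes of the first set rose and 274 fell, and 849 and 481 of the second, with medians of −0.32 and 0.25. Over annotated transcripts alone the counts were 76 and 157 in the first set and 211 and 188 in the second. The genes that fell held 26.1, 26.2 and 26.6% of the FPKM of the tested genes in MSC libraries 1 to 3, and 7.84, 8.19 and 9.59% in NPC libraries 1 to 3. The genes that rose went from 5, 5.16 and 5.72% to 20.5, 19.3 and 24.7%. Such shares weigh abundant genes most. Among those that rose was ENSRNOG00000005695, at 22213, 20500 and 40768 FPKM in the NPCs and 6354, 7229 and 9616 in the MSCs.

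**Figure D1:**
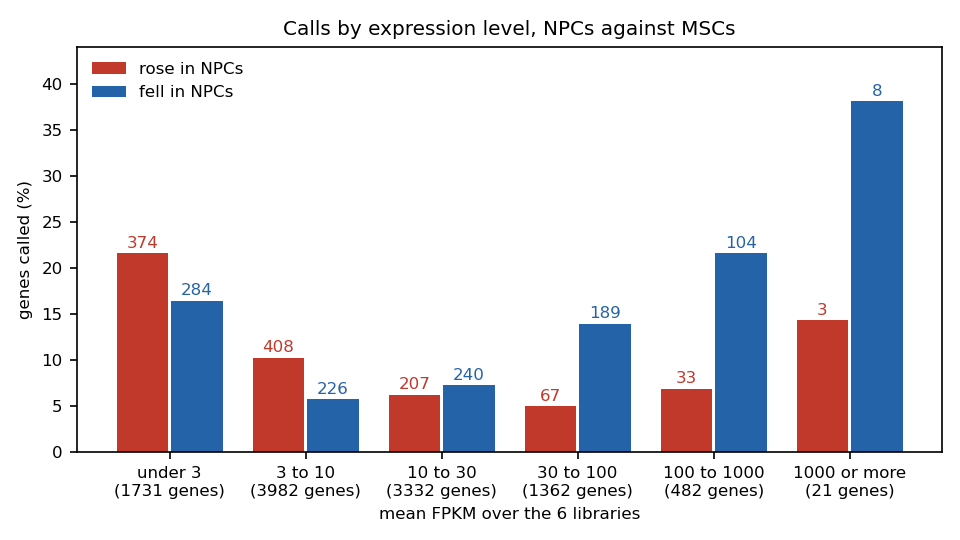
Percentage of tested genes called as risen (red) or fallen (blue) in NPCs against MSCs, by the mean FPKM of the gene over the 6 libraries, with the number of called genes over each bar and the number tested under each class. With the scaling used here falls outnumber rises from 30 FPKM upward, with 189 against 67, 104 against 33 and 8 against 3 genes.

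Symbols could be given to 1310 of the tested genes. For 765 of them the symbol came from a table ordered by gene ID, and of these 71 rose and 76 fell, which is 19.2% and close to the background of 19.6%. The other 545 symbols came from tables that the study drew up on these same samples, largely of changed genes, and of these 225 rose and 266 fell. A list made of the second kind of gene is therefore not independent evidence of a direction, and the genes named through the ID order are marked as such below. Members of 63 gene lists were looked up, and 237 of them were tested, 73 of which rose and 79 fell. Of the 101 named by ID order, 11 rose and 12 fell, and 62 rose and 67 fell of the 136 named from the study's own selections. Since 90.1% of the tested genes of the second kind were called, a high count in a list made up of them follows from how they were named, and only members named by ID order can be set beside the 19.6%.

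**Figure D2:**
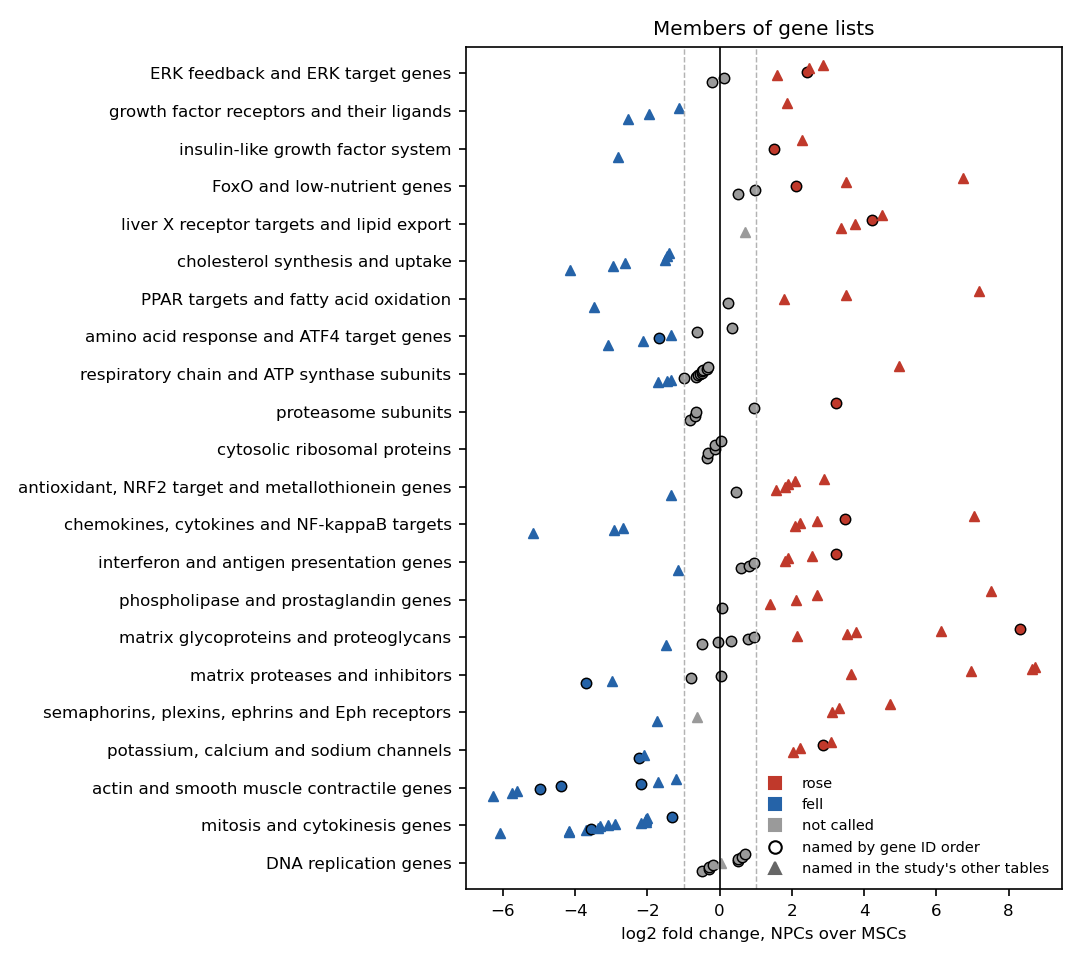
Log2 fold change of each tested member of 22 gene lists, NPCs over MSCs, with 1 marker per gene, coloured by call (red rose, blue fell, grey not called); circles are genes named through the order of their ID and triangles genes named in the study's other tables. Dashed lines stand at a log2 fold change of 1 in either direction. The contractile and mitosis genes lie wholly on the left and the 9 DNA replication genes between the dashed lines. Positions of Prg4, Pla2g2a and Kif20a, listed at 0 in libraries of a group, depend on the pseudocount.

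Of 6 tested genes on the list of ERK targets and feedback genes, 4 rose, none fell and 2 were not called, with a median log2 fold change of 2.01. Of the 3 named by ID order 1 rose, and their median was 0.13. The members that rose were the transcription factors Egr1, Egr2, Egr3 and Etv4. Egr2, named by ID order, was at 10.8, 9.36 and 30.9 FPKM in NPC libraries 1 to 3 and 2.03, 3.59 and 2.23 in MSC libraries 1 to 3. The NPC values lay above all MSC values, with the third library highest, at a log2 fold change of 2.42 ± 0.47 (SE) and an adjusted p of 0.0068. Egr1 was at 29.9, 22.6 and 33.4 FPKM in the NPCs and 10.9, 10.7 and 5.97 in the MSCs, a log2 fold change of 1.59 ± 0.24 (adjusted p = 0.0025). Egr3 and Etv4 rose by 2.87 ± 0.43 and 2.48 ± 0.37 (adjusted p = 0.0024 and 0.0023). Etv5, another ETS factor that ERK signalling induces, was at 10.4, 10.2 and 11.9 FPKM in NPCs and 9.97, 10 and 8.43 in MSCs, and the stress response gene Ier3 at 125, 119 and 192 and 180.0, 134 and 156. Neither passed the test, with log2 fold changes of 0.13 ± 0.15 and −0.20 ± 0.24, and both were named by ID order. When annotated transcripts alone were added up, Egr2, Egr3 and Etv4 lost their calls (adjusted p = 0.85, 0.092 and 0.14).

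The promoters of Egr1 and Egr2 are shown because both genes rose and both carry the element through which serum response factor acts with ERK-activated partners. The stretches are the 120 bases before the RefSeq start site in the GRCr8 build, 5′ to 3′ along the gene, with the CArG boxes in capitals. That of Egr1 lies on the plus strand and that of Egr2 on the minus strand.
Egr1 chr18:26736958-26737077: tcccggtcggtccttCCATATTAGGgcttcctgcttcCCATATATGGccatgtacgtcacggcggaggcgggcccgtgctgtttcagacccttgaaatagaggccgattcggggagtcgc
Egr2 chr20:21054442-21054561: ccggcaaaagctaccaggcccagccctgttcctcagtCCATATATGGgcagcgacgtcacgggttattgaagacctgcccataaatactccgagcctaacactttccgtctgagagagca
The CArG boxes of Egr1 began 105 and 83 bases before the start, and that of Egr2 83 bases before it. A CArG box, read on both strands, was in the 250 bases before the start of 1.5% of the 33469 promoters of the table.

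The few of the cells' own growth factor genes that were tested moved in both directions. Of 4 tested genes for growth factor receptors and their ligands, 3 fell and 1 rose, with a median log2 fold change of −1.54. None of these was named by ID order. The EGF receptor ligand Tgfa was at 2.04, 1.22 and 1.70 FPKM in the NPCs and 8.17, 8.25 and 12.6 in the MSCs, and every NPC library lay below every MSC library. Its log2 fold change was −2.54 ± 0.30 (adjusted p = 0.00087). Hbegf, a second ligand of that receptor, fell by 1.13 ± 0.20 (adjusted p = 0.0048), and the neuregulin receptor Erbb4 by 1.95 ± 0.39 (adjusted p = 0.0077). Fgf10, a ligand of the FGF family, rose by 1.87 ± 0.25 (adjusted p = 0.0015), from 4.06, 3.03 and 3.00 FPKM in the MSCs to 10.2, 12.2 and 17.8 in the NPCs. The ligands Areg, Ereg and Btc, named by ID order, did not reach 1 FPKM in all libraries of either group. Areg and Ereg were in the fit and not called (1.26 ± 0.76 and −0.32 ± 0.88, adjusted p = 0.24 and 0.8). With annotated transcripts alone, the calls of Hbegf, Erbb4 and Fgf10 were lost (adjusted p = 0.32, 0.9 and 0.11), Hbegf also lost its call without NPC library 2, and Erbb4 with a pseudocount of 1.

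**Figure D3:**
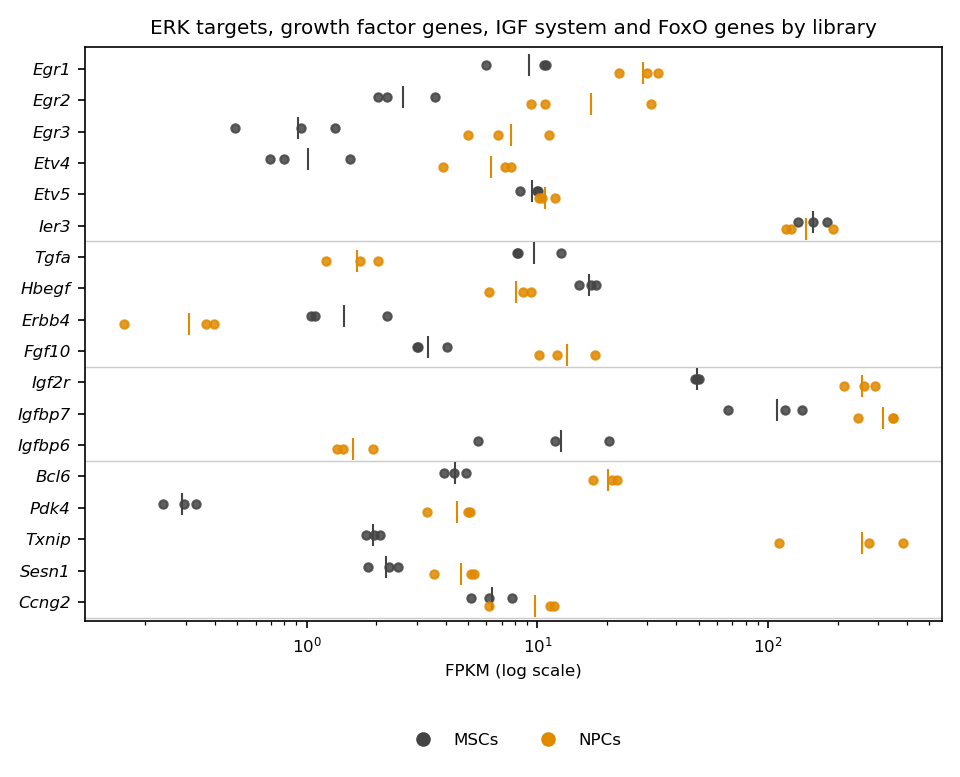
FPKM of 18 genes in each of the 3 MSC libraries (dark grey) and the 3 NPC libraries (orange), on a log scale, with short bars at the group means; the blocks from top to bottom are ERK targets, growth factors and receptors, the insulin-like growth factor system, and FoxO and low-nutrient genes. The groups are apart for each gene but Ier3 and Ccng2, and Txnip shows the widest gap.

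In the insulin-like growth factor system 2 of 3 tested genes rose and 1 fell. Igf2r, the receptor that carries IGF-2 and lysosomal enzymes to the lysosome, was at 291, 260.3 and 213 FPKM in the NPCs and 49.4, 50.3 and 48.1 in the MSCs. The groups lay far apart, at a log2 fold change of 2.29 ± 0.16 (adjusted p = 8.7e-05). Igfbp7, a secreted binding protein named by ID order, rose by 1.51 ± 0.26 (adjusted p = 0.004), from 119, 141 and 67.2 to 245, 348 and 348 FPKM. Igfbp6, which binds IGF-2, fell by 2.81 ± 0.48 (adjusted p = 0.004), with MSC libraries that spread from 5.53 to 20.4 FPKM.

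Of 5 tested genes on the list of FoxO and low-nutrient genes, 3 rose and none fell, with a median log2 fold change of 2.11. Members of this list need not all respond to nutrients in the same direction, and the nutrient state of the cells was not tested. Bcl6, a transcriptional repressor named by ID order, was at 22.2, 21.0 and 17.5 FPKM in the NPCs and 4.90, 4.34 and 3.95 in the MSCs (log2 fold change 2.11 ± 0.15, adjusted p = 0.00011). Pdk4, which inhibits pyruvate dehydrogenase, rose by 3.49 ± 0.26 (adjusted p = 0.00011), and Txnip, an inhibitor of thioredoxin and of glucose uptake, by 6.73 ± 0.40 (adjusted p = 5.3e-05). Txnip was at 385, 273 and 111 FPKM in NPC libraries 1 to 3, the third being lowest, and near 2 FPKM in each MSC library (1.8, 2.07 and 1.96). The other members were both named by ID order and not called. The leucine sensor gene Sesn1 was at 5.32, 5.14 and 3.57 FPKM against 2.49, 2.27 and 1.84 (log2 fold change 0.98 ± 0.21, adjusted p = 0.011), short of the fold required, and Ccng2 was at 11.3, 11.8 and 6.16 against 6.15, 7.74 and 5.15, with groups that overlapped.

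The lipid genes that could be named and tested moved in different directions by list. Genes of cholesterol synthesis and uptake fell, 6 of 6 tested, with a median log2 fold change of −2.08. Genes of cholesterol export that liver X receptors (LXRs) drive rose, 4 of 5, with a median of 3.74. None of the synthesis genes and 1 of the export genes was named by ID order. These counts are therefore not independent evidence of a split by function. Abcg1 and Nr1h3 reached 1 FPKM in all libraries of the NPCs alone, which fixed their direction. LXRs are nuclear receptors that sense oxidised cholesterol, while SREBP-2, the product of Srebf2, drives the synthesis genes when sterol is low. The export genes are taken first.

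Abcg1, which passes cholesterol to high-density lipoprotein and was named by ID order, was at 18.9, 24.3 and 19.7 FPKM in the NPCs and 0.929, 0.847 and 1.21 in the MSCs. The groups did not overlap, and the log2 fold change was 4.21 ± 0.22 (adjusted p = 3.4e-05). Its partner transporter Abca1 was at 60.4, 78.8 and 67.9 and 5.52, 6.71 and 6.93 FPKM, a log2 fold change of 3.35 ± 0.18 (adjusted p = 3.4e-05). Nr1h3, which encodes LXR-alpha, rose by 3.74 ± 0.22 (adjusted p = 5.3e-05), from 0.930, 1.28 and 0.721 to 12.8, 17.9 and 13.5 FPKM. Apoe, the apolipoprotein that accepts exported lipid, was at 842, 1163 and 277 FPKM in NPC libraries 1 to 3 and 33.1, 18.8 and 32.9 in the MSC libraries, the third NPC library being lowest of its group (log2 fold change 4.49 ± 0.52, adjusted p = 0.00085). Pltp, the phospholipid transfer protein, was at 71.1, 138 and 63.8 against 48.8, 50.5 and 52.1 FPKM and was not called (log2 fold change 0.70 ± 0.27, adjusted p = 0.085). With annotated transcripts alone Abca1 lost its call (adjusted p = 0.56).

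The fall of the synthesis genes was seen along the pathway, although none of the 6 was named by ID order. Pmvk, the phosphomevalonate kinase, was at 8.24, 7.01 and 7.06 FPKM in the NPCs and 20.1, 19.7 and 19.1 in the MSCs. Fdft1, squalene synthase, fell by 1.52 ± 0.15 (adjusted p = 0.00039), and Cyp51, the lanosterol demethylase, by 2.94 ± 0.25 (adjusted p = 0.00023), from 64.3, 74.9 and 45.2 to 11.7, 7.32 and 6.23 FPKM. Acat2, whose enzyme makes acetoacetyl-CoA for the pathway, was at 1.71, 1.78 and 2.09 against 10.9, 12.8 and 10.9 FPKM, a log2 fold change of −2.63 ± 0.18 (adjusted p = 8.6e-05). Srebf2 itself was at 6.88, 5.40 and 6.25 FPKM in the NPCs and 18.7, 16.3 and 12.9 in the MSCs (−1.41 ± 0.17, adjusted p = 0.00095). Over annotated transcripts alone these 5 kept their calls. Fads1, a desaturase of polyunsaturated fatty acids and the single tested member of the fatty acid synthesis list, fell by 1.4 ± 0.14 (adjusted p = 0.00044).

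**Figure D4:**
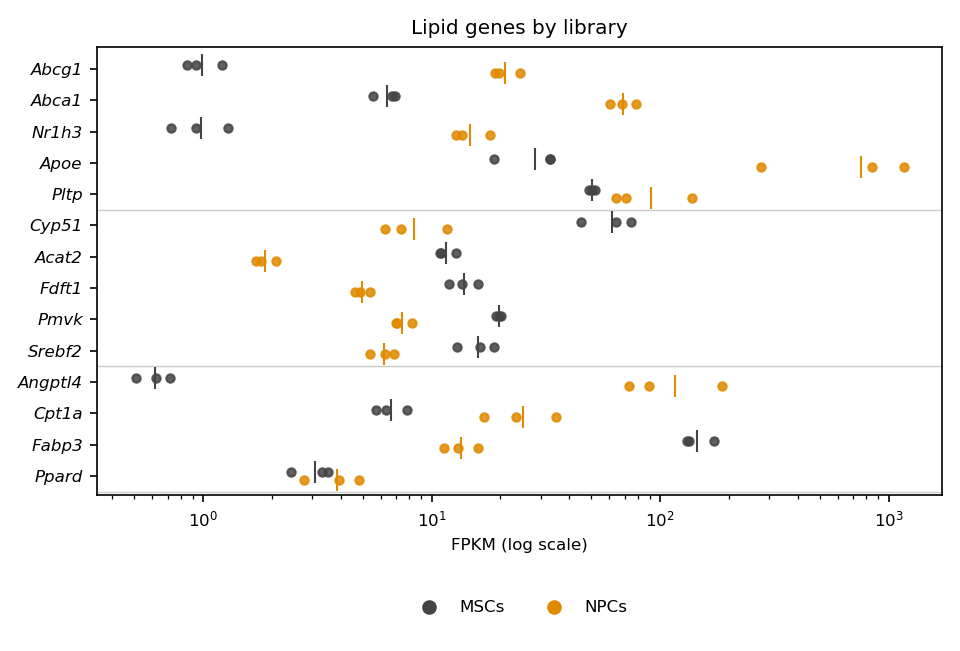
FPKM of 14 lipid genes in each of the 3 MSC libraries (dark grey) and the 3 NPC libraries (orange), on a log scale, with short bars at the group means; the blocks are liver X receptor targets and lipid export, cholesterol synthesis and uptake, and targets of PPARs and fatty acid oxidation. All 5 synthesis genes shown lie lower in each NPC library than in any MSC library, and all 5 genes of the first block lie higher.

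Among PPAR targets and genes of fatty acid oxidation, 3 of 5 rose and 1 fell, with a median log2 fold change of 1.79. Angptl4, a secreted inhibitor of lipoprotein lipase, was at 72.9, 89.5 and 187 FPKM in the NPCs and 0.508, 0.622 and 0.715 in the MSCs, so that the lowest NPC library stood far above the highest MSC library (7.17 ± 0.36, adjusted p = 2.8e-05). Cpt1a, the carnitine transferase that admits fatty acids to mitochondria, rose by 1.79 ± 0.30 (adjusted p = 0.0037), and Pdk4 is given above. Fabp3, a fatty acid binding protein of muscle, fell by 3.49 ± 0.21 (adjusted p = 5.1e-05), from 134, 131 and 171 to 11.3, 16.0 and 13.0 FPKM. Ppard was not called, at 3.92, 2.77 and 4.82 against 3.32, 2.43 and 3.51 FPKM.

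The machinery of respiration and protein turnover showed small shifts that mostly missed the fold required. Of 13 subunits of the respiratory chain and ATP synthase, 1 rose and 3 fell, and 9 were not called. The median was −0.53 over the 13, and −0.49 over the 9 uncalled ones, which were the members named by ID order. The ATP synthase subunit Atp5f1b, for instance, was at 205, 242 and 223 FPKM in the NPCs and 318, 320.4 and 264 in the MSCs, a log2 fold change of −0.49 ± 0.14 (adjusted p = 0.027). After quantile normalisation the median of the 13 was −0.11. The subunit that rose was Cox4i2, the hypoxia-linked form of a cytochrome oxidase subunit, at 23.4, 24.4 and 13.4 FPKM against 0.542, 0.760 and 0.298 (4.98 ± 0.32, adjusted p = 6.7e-05). None of 5 cytosolic ribosomal protein genes was called, all named by ID order, with a median of −0.14 that turned to 0.29 under quantile normalisation. Of 7 mitochondrial ribosomal protein genes 1 fell, with a median of −0.40, and neither chaperonin subunit was called.

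Of 5 tested proteasome subunits, all named by ID order, 1 rose and 4 were not called. Psmb9, an immunoproteasome subunit that interferon induces, was at 6.81, 6.60 and 4.72 FPKM in the NPCs and 0.689, 0.594 and 0.353 in the MSCs (3.21 ± 0.26, adjusted p = 0.00018). Psmb8, of the same kind, was at 14.2, 14.4 and 11.9 and 8.41, 6.02 and 5.79 FPKM, short of the fold required (0.94 ± 0.17, adjusted p = 0.0057). The standard subunits Psmb1, Psmd2 and Psmd12 had log2 fold changes of −0.65 ± 0.16, −0.69 ± 0.14 and −0.83 ± 0.17 and were not called.

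Of 6 tested targets of ATF4, the factor that cells use when amino acids run short, 4 fell and none rose, with a median log2 fold change of −1.53. Of the 3 named by ID order 1 fell, and their median was −0.63. Slc7a1, the transporter of arginine and lysine and named by ID order, was at 2.78, 2.74 and 6.48 FPKM in the NPCs and 10.8, 10.7 and 13.6 in the MSCs (−1.69 ± 0.36, adjusted p = 0.01). Mthfd2, an enzyme of mitochondrial one-carbon metabolism, fell by 2.11 ± 0.36 (adjusted p = 0.0039), with NPC library 3 at 27.8 FPKM, the highest of its group. Chac1, which degrades glutathione, fell by 3.09 ± 0.85 (adjusted p = 0.032), and Slc7a11, the cystine transporter, by 1.36 ± 0.33 (adjusted p = 0.016). Atf3 and Psph, named by ID order, were not called, at 0.34 ± 0.27 and −0.63 ± 0.27. Chac1 lost its call without any of 5 of the 6 libraries, Slc7a11 without MSC library 3 and with a pseudocount of 1, and Slc7a1, Slc7a11 and Chac1 lost theirs with annotated transcripts alone (adjusted p = 0.064, 0.16 and 0.098). Of 5 cytosolic aminoacyl-tRNA synthetases 1 fell, Aars, by 1.49 ± 0.29 (adjusted p = 0.007), and the list had a median of −0.68.

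Antioxidant and metal-binding genes were mostly higher, 5 of 7 tested, with 1 fall and a median log2 fold change of 1.82. Gstp1, a glutathione transferase, was at 734, 626 and 455 FPKM in the NPCs and 83.4, 81.9 and 64.9 in the MSCs, a rise of 2.89 ± 0.19 (adjusted p = 7.9e-05). The iron store protein Fth1 rose by 1.89 ± 0.19 (adjusted p = 0.00043), from 214, 244 and 140.1 to 831, 746 and 693 FPKM. Gclc, the first enzyme of glutathione synthesis, rose by 1.55 ± 0.21 (adjusted p = 0.0017), and Sod2, the mitochondrial superoxide dismutase, by 2.08 ± 0.27 (adjusted p = 0.0012). The member that fell was the cystine transporter gene given above. Sod1, the single member named by ID order, was at 146, 176 and 153 FPKM in the NPCs and 131, 132 and 77.3 in the MSCs, and its log2 fold change of 0.45 ± 0.19 did not pass (adjusted p = 0.1). Mt3, a metallothionein, rose by 1.82 ± 0.53 (adjusted p = 0.032), a call lost under 8 of 17 alternative settings, among them the fits without NPC library 1, MSC library 1 or MSC library 2. The transferrin receptor gene Tfrc, also named by ID order, had a log2 fold change of −0.94 ± 0.27 and was not called.

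Inflammatory mediators and their inhibitors changed in both directions. Of 8 tested chemokines, cytokines and NF-kappaB targets, 5 rose and 3 fell, with a median log2 fold change of 2.17. The chemokine Ccl7, named by ID order, was at 47.2, 53.2 and 65.1 FPKM in the NPCs and 4.77, 4.53 and 4.60 in the MSCs (3.47 ± 0.17, adjusted p = 2.5e-05). Lcn2, a secreted siderophore-binding protein, was at 18.3, 21.8 and 46.4 against 0.0281, 0.145 and 0.132 FPKM, near absent in the MSCs (7.04 ± 0.43, adjusted p = 5.7e-05). The NF-kappaB inhibitors Nfkbia and Tnfaip3 rose by 2.10 ± 0.20 and 2.23 ± 0.32 (adjusted p = 0.00034 and 0.0021), although over annotated transcripts alone Tnfaip3 turned to −1.56 (adjusted p = 0.36). On the other side, the alarmin Il33 fell from 33.7, 42.0 and 30.1 to 0.731, 1.01 and 1.02 FPKM (−5.18 ± 0.19, adjusted p = 8.9e-06). The stem cell chemokine Cxcl12 fell by 2.93 ± 0.56 (adjusted p = 0.0068), and Tnfaip6, an anti-inflammatory protein that MSCs secrete, by 2.67 ± 0.52 (adjusted p = 0.0073), with MSC libraries between 10.2 and 44.2 FPKM. Over annotated transcripts alone Cxcl12 was not called (adjusted p = 0.07).

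Of 8 tested interferon and antigen presentation genes, 4 rose and 1 fell, with a median of 1.37. Of the 4 named by ID order 1 rose, and their median was 0.88. Irf7, Isg15 and Psmb9 reached 1 FPKM in all libraries of the NPCs alone, which fixed their direction. Irf7 and Irf1, transcription factors of the interferon response, rose by 2.57 ± 0.33 and 1.89 ± 0.18 (adjusted p = 0.0012 and 0.00033), and Isg15, a ubiquitin-like protein, by 1.8 ± 0.42 (adjusted p = 0.015). Irf7 and Isg15 lost their calls with annotated transcripts alone (adjusted p = 0.1 and 0.076), and Isg15 also without MSC library 1. Psmb9 is given above. Ifit2, a further interferon target, fell by 1.14 ± 0.21 (adjusted p = 0.0057), from 7.54, 10.6 and 8.14 to 3.41, 5.15 and 3.80 FPKM, a call lost with a pseudocount of 1. The peptide transporter Tap1, Psmb8 and Mx2, all 3 named by ID order, were not called, and Tap1 stood at 9.99, 7.24 and 8.05 against 4.91, 3.99 and 4.62 FPKM (0.82 ± 0.20, adjusted p = 0.018).

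Of 5 tested phospholipase and prostaglandin genes, 4 rose and 1 was not called, with a median of 2.11. Pla2g2a, a secreted phospholipase that releases fatty acids from membranes, was at 20.4, 19.1 and 30.5 FPKM in the NPCs and at 0, 0 and 0.0715 in the MSCs. Ptgs1, the constitutive cyclooxygenase, was at 57.9, 58.7 and 69.2 against 15.3, 16.5 and 9.96 FPKM (2.11 ± 0.18, adjusted p = 0.00024), and Ptges, a prostaglandin E synthase, rose by 2.69 ± 0.26 (adjusted p = 0.00036). The remaining rise was that of Ptger4, a receptor for prostaglandin E2, by 1.39 ± 0.30 (adjusted p = 0.01), which over annotated transcripts alone turned to −1.02 (adjusted p = 0.66). Pla2g4a, the cytosolic phospholipase that releases arachidonic acid and the one member named by ID order, was at 8.88, 11.4 and 10.9 FPKM in the NPCs and 10.3, 12.9 and 6.41 in the MSCs (0.06 ± 0.23).

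Because such genes are also active in macrophages, the list of macrophage and blood cell markers was read beside them. Of 20 markers 5 could be named. The lysosomal protein Cd68 was at 9.54, 10.5 and 11.4 FPKM in the NPCs and 0.502, 0.305 and 0.226 in the MSCs (4.56 ± 0.26, adjusted p = 4.4e-05). The defining leukocyte marker Ptprc (CD45) was at 0 in 5 of the 6 libraries with a highest value of 0.00491 FPKM, and Aif1 was listed at 0 in all 6. Itgb2 stood at 0.343, 0.399 and 0.333 FPKM in the NPCs and 0.157, 0.147 and 0.138 in the MSCs, and Spi1, the myeloid factor, at 0.222, 0.162 and 0.136 and 0, 0.0311 and 0.0166, a rise of 1.21 ± 0.28 (adjusted p = 0.013) at under 1 FPKM that was lost with a pseudocount of 1, under quantile normalisation and without MSC library 1. The part of such cells in the results was not tested beyond these values. The 5 together summed to 10.1 to 11.9 FPKM in the NPC libraries and 0.385 to 0.658 in the MSC libraries, most of it Cd68.

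Matrix genes changed in both directions. Of 11 tested glycoproteins and proteoglycans, 5 rose, 1 fell and 5 were not called, with a median log2 fold change of 0.96. Of the 6 named by ID order 1 rose and 5 were not called, and their median was 0.56. The small proteoglycan Dcn (decorin) was at 41.2, 73.7 and 202 FPKM in NPC libraries 1 to 3 and 1.13, 1.06 and 0.997 in the MSC libraries, a wide spread among the NPCs with the third highest (6.13 ± 0.52, adjusted p = 0.00025). Its relative Lum (lumican) rose from 11.2, 12.8 and 5.34 to 76.0, 124 and 145 FPKM (3.52 ± 0.33, adjusted p = 0.00033). The laminin chain Lama2 rose by 3.79 ± 0.24 (adjusted p = 6.8e-05) and the thrombospondin Thbs4 by 2.14 ± 0.32 (adjusted p = 0.0023), whereas Thbs2, another thrombospondin, fell by 1.49 ± 0.28 (adjusted p = 0.0059). Prg4 (lubricin), named by ID order, was at 18.6, 31.6 and 58.0 FPKM in the NPCs and was listed at 0 in all 3 MSC libraries. The laminins Lamc1 and Lama4, also named by ID order, were higher in each NPC library without reaching the fold required (0.96 ± 0.19 and 0.79 ± 0.21, adjusted p = 0.0081 and 0.023). Lama2 lost its call with annotated transcripts alone (adjusted p = 0.7).

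Collagen chains split likewise, with 1 rise and 3 falls among 4 tested. Col6a1, named by ID order, was at 641, 622 and 510.1 FPKM in the NPCs and 261, 229 and 233 in the MSCs (1.22 ± 0.15, adjusted p = 0.0011). Col11a1, a fibrillar chain of cartilage, fell from 298, 317 and 401 to 65.3, 66.0 and 73.7 FPKM (−2.36 ± 0.20, adjusted p = 0.00022). Col24a1 and Col9a2 fell by 1.56 ± 0.35 and 2.16 ± 0.50 (adjusted p = 0.013 and 0.014), but over annotated transcripts alone neither was called, at 0.20 and −2.04 (adjusted p = 0.93 and 0.093). The enzymes P4ha3, which hydroxylates proline in collagen, and Loxl4, which crosslinks it, fell by 2.01 ± 0.41 and 2.44 ± 0.26 (adjusted p = 0.0087 and 0.00055), and both lost their calls over annotated transcripts alone (adjusted p = 0.46 and 0.94).

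Secreted proteases held the steepest rises among named genes. Of 8 tested matrix proteases and inhibitors, 4 rose and 2 fell, with a median of 1.84. Of the 3 named by ID order none rose, 1 fell and 2 were not called, and their median was −0.80. Mmp3 (stromelysin-1) was at 805, 1383 and 881 FPKM in the NPCs and 1.96, 2.29 and 2.66 in the MSCs, Mmp10 (stromelysin-2) at 107, 175 and 115 and 0.195, 0.287 and 0.121, and Mmp13 (collagenase-3) at 271, 433 and 572 and 4.73, 5.87 and 0.978. Their log2 fold changes were 8.64 ± 0.24, 8.73 ± 0.25 and 6.95 ± 0.62 (adjusted p = 4.4e-06, 4.4e-06 and 0.00044). The gelatinase Mmp9 rose by 3.65 ± 0.32 (adjusted p = 0.00024) at a far lower level, 3.18, 1.71 and 2.97 against 0.129, 0.0866 and 0.0947 FPKM. Mmp23 fell by 2.98 ± 0.21 (adjusted p = 8.9e-05), and the aggrecanase Adamts1, named by ID order, was not called.

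The proximal promoters of the stromelysins and collagenase-3 are shown because these 3 genes lie close together on chromosome 8 and all rose. Each stretch is the 120 bases before the RefSeq start in GRCr8, plus strand, with the AP-1 site (TGAGTCA or, on the other strand, TGACTCA) in capitals.
Mmp13 chr8:12782709-12782828: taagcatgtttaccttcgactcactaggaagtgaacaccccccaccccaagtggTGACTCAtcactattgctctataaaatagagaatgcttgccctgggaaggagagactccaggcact
Mmp3 chr8:12925161-12925280: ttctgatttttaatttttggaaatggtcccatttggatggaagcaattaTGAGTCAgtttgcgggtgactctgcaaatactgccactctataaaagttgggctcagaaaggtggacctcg
Mmp10 chr8:12974587-12974706: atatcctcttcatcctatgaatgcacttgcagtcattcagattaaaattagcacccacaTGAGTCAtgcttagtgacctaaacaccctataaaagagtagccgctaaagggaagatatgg
The site began 66, 71 and 61 bases before the start of Mmp13, Mmp3 and Mmp10. An AP-1 site of these letters was in the 250 bases before the start of 4.05% of all 33469 promoters, and in 8 of the 58 promoters of named genes that rose and 2 of the 67 of those that fell.

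The few MSC surface and stromal markers that could be named were mostly lower. Of 6 tested MSC surface and stromal markers, 5 fell and 1 rose, with a median of −2.07. Itgb1, the beta subunit shared by most matrix-binding integrins, was at 203, 256 and 271 FPKM in the NPCs and 1044, 1217 and 996 in the MSCs (−2.23 ± 0.17, adjusted p = 0.00013). Alcam (CD166), named by ID order, fell from 16.2, 19.6 and 16.2 to 2.13, 1.88 and 2.48 FPKM (−3.01 ± 0.18, adjusted p = 5.8e-05), and Mcam (CD146) fell by 1.33 ± 0.19 (adjusted p = 0.002). Vim, the intermediate filament protein of mesenchymal cells, fell by 1.90 ± 0.17 (adjusted p = 0.00029) and still stood at 879, 674 and 747 FPKM in the NPCs. The member that rose was Vcam1, at 4.20, 6.26 and 2.58 against 0.0243, 0.0685 and 0.0873 FPKM (4.68 ± 0.36, adjusted p = 0.00015). Of 4 integrin subunits 1 rose and 2 fell, Itgb1 and Itgax. Itga10, which pairs with beta-1 to bind collagen, rose by 4.61 ± 0.29 (adjusted p = 6.2e-05), and Itgb5, named by ID order, was not called (78.6, 124 and 120.2 against 64.7, 91.1 and 97.8 FPKM). Itgax, a leukocyte integrin chain that was not on the macrophage list, fell from 2.17, 5.29 and 1.47 to 0.491, 0.481 and 0.581 FPKM (−2.18 ± 0.41, adjusted p = 0.0063), and over annotated transcripts alone was at 1.14 (adjusted p = 0.61).

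Genes of the contractile apparatus fell, 8 of 8 tested, with a median log2 fold change of −4.68. The 3 named by ID order were among them, and 7 of the 8 kept their calls with annotated transcripts alone. Csrp2, a muscle LIM protein, was at 2.71, 2.64 and 3.78 FPKM in the NPCs and 106, 114 and 64.6 in the MSCs (−4.96 ± 0.23, adjusted p = 1.8e-05). Pln (phospholamban), which holds back the calcium pump in muscle cells, was at 3.16, 2.84 and 5.05 against 65.0, 84.7 and 74.3 (−4.40 ± 0.25, adjusted p = 4.6e-05), and the nonmuscle myosin Myh10 at 11.3, 12.9 and 12.3 against 51.4, 61.5 and 45.6 (−2.17 ± 0.14, adjusted p = 6.6e-05). Tagln (transgelin), the largest loss in FPKM of a named gene on the list, stood at 4237, 4280.4 and 4799 FPKM in the MSCs and 47.6, 32.8 and 138 in the NPCs. Of the 5 promoters of the group that could be matched, none held a CArG box in the 250 bases before the start.

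Genes of the TGF-beta superfamily moved in both directions. The receptor genes Tgfbr3, named by ID order, and Tgfbr1 rose by 2.19 ± 0.27 and 1.38 ± 0.21 (adjusted p = 0.0011 and 0.0028). Fst (follistatin), which binds activin, fell by 2.63 ± 0.27 (adjusted p = 0.00048), a call lost with annotated transcripts alone (adjusted p = 0.25). Bmp3, an atypical BMP that was on no list and was named by ID order, fell from 12.0, 12.3 and 15.3 to 0.348, 0.310 and 0.710 FPKM (−4.70 ± 0.32, adjusted p = 8.9e-05).

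Among 5 tested Wnt genes 2 rose and 2 fell. Frzb, a secreted Wnt antagonist, was at 86.7, 133 and 58.6 FPKM in the NPCs and 0.584, 0.552 and 0.328 in the MSCs (7.2 ± 0.29, adjusted p = 1.3e-05). The receptor Fzd2 fell by 1.41 ± 0.32 (adjusted p = 0.012), and Nkd2, an inhibitor of the pathway, by 2.29 ± 0.30 (adjusted p = 0.0014). Fzd2 and Nkd2 lost their calls with annotated transcripts alone (adjusted p = 0.41 and 0.11), and Fzd2 also without NPC library 1. Neither tested Notch gene was called, Lfng at 3.21, 1.79 and 2.59 against 1.75, 2.46 and 1.28 FPKM.

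The tested genes of cell division fell, and none of the tested genes of DNA replication was called. All 15 tested genes of mitosis and cytokinesis fell, with a median log2 fold change of −3.09. Of the 9 for replication 0 were called, with a median of 0.03. The 2 counts cannot be set against each other. Of the mitosis genes, Cdk1 alone reached 1 FPKM in all libraries of both groups. The others reached it in the MSCs alone, which fixed their direction, whereas the 9 replication genes reached it in both. Cdk1, the mitotic kinase and named by ID order, was at 4.82, 6.30 and 7.2 FPKM in the NPCs and 18.2, 17.3 and 9.79 in the MSCs (−1.32 ± 0.24, adjusted p = 0.0055). Cenpf, a kinetochore protein also named by ID order, fell from 2.35, 2.16 and 1.05 to 0.0739, 0.0616 and 0.0510 FPKM (−3.56 ± 0.31, adjusted p = 0.00025), and Cdc20, which activates the anaphase-promoting complex, from 5.77, 4.98 and 2.73 to 1.20, 1.05 and 0.835 (−2.03 ± 0.28, adjusted p = 0.0017). Kif20a, a motor protein needed for the final cut between daughter cells, stood at 7.36, 6.91 and 5.47 FPKM in the MSCs and was listed at 0 in all 3 NPC libraries. The helicase subunit Mcm6, by contrast, was at 2.98, 2.94 and 2.03 FPKM in the NPCs and 4.02, 3.65 and 2.97 in the MSCs (−0.48 ± 0.21, adjusted p = 0.12), and Rfc1, the large subunit of the clamp loader, at 18.9, 19.4 and 12.4 and 11, 12.6 and 9.77 (0.51 ± 0.19, adjusted p = 0.07). Of the 9 replication genes 8 were named by ID order, but 13 of the 15 mitosis genes were not. The replication gene Chaf1b, named by ID order, did not reach 1 FPKM in all libraries of either group. It was called as fallen (−1.46 ± 0.43, adjusted p = 0.033), a call lost with annotated transcripts alone (adjusted p = 0.17). Over annotated transcripts alone 8 of the mitosis genes were called, and Cdk1 was not (adjusted p = 0.41). Further named mitosis genes did not reach 1 FPKM in all libraries of either group. Among these Bub1b, Kif20b, Kif4a and Ttk were called as fallen. Ccnf and Kif18a were not called (−1.02 ± 0.39 and −0.87 ± 0.42, adjusted p = 0.077 and 0.14).

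Promoters of mitosis genes are shown because all 15 tested members fell, a direction that the choice of genes fixed for all but Cdk1. Each of the 12 of these that could be matched carried a CCAAT box, the binding site of the factor NF-Y, in the 250 bases before its start. In all promoters of the table the share was 34.0%. A CCAAT box was in 17 of the 58 promoters of named genes that rose and 32 of the 67 of those that fell. The CCAAT box was searched as CCAAT and, for the other strand, ATTGG, and stands in capitals in the 120 bases before the start (GRCr8, along the strand of the gene). Cdk1 and Kif20a lie on the plus strand, Cenpf and Cdc20 on the minus strand.
Cdk1 chr20:19265173-19265292: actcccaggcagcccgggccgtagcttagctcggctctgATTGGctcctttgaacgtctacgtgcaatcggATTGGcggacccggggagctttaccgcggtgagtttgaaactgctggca
Cenpf chr13:103760887-103761006: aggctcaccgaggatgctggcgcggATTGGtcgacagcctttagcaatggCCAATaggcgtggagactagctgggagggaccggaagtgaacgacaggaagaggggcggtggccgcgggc
Cdc20 chr5:137255800-137255919: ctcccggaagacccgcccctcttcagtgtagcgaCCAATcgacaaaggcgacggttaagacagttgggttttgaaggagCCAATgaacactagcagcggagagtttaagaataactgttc
Kif20a chr18:26504302-26504421: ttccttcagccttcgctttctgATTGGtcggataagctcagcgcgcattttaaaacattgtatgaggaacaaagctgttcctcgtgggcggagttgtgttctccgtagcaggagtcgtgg
The boxes shown began 81 and 49 bases before the start of Cdk1, 95 and 70 before Cenpf, 86 and 41 before Cdc20 and 98 before Kif20a. The CHR element (TTTGAA or TTCAAA) was in 6 of the 12 and in 16.2% of all promoters. Of the other motifs searched in the promoters of named genes, a kappaB site (GGGANTTCC or GGAANTCCC) was in 2 of 58 that rose and 4 of 67 that fell (1.43% of all), the CRE (TGACGTCA) in 1 and 2 (1.59% of all), and a sterol element (TCACCCCAC or GTGGGGTGA) in 0 and 1 (0.409% of all). The sets were not tested against all promoters.

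Genes that define neural cells were mostly low and did not move together. Of 24 genes on the list of neural progenitor genes, 10 could be named, and 4 reached 1 FPKM in all libraries of a group. Nes (nestin), the filament protein by which neural progenitors are commonly identified, was at 0.293, 0.328 and 0.293 FPKM in the NPCs and 0.152, 0.145 and 0.0534 in the MSCs, under the line of 1 FPKM in every library. The NPC libraries lay above the MSC libraries, by 0.90 ± 0.28 (adjusted p = 0.042), short of the fold required. Fabp7 and Gfap, of radial glia and astrocytes, had highest values of 0 and 0.0237 FPKM over the 6 libraries. Sox9 and Hes1, both named by ID order, were expressed without a call, Sox9 at 3.55, 2.29 and 5.20 FPKM in the NPCs and 5.35, 3.49 and 4.51 in the MSCs, and Hes1 at 10.3, 18.5 and 10.1 and 13.5, 8.64 and 16.4. Emx2, a forebrain transcription factor, fell by 1.13 ± 0.23 (adjusted p = 0.0081), a call lost with a pseudocount of 1 and with annotated transcripts alone.

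The neuronal list had 7 named genes, and 6 of them were under 1 FPKM in every library, Dcx, Gad1, Gap43 and Rbfox3 among them. The seventh, Uchl1, a ubiquitin hydrolase abundant in neurons and named by ID order, fell from 83.0, 78.8 and 76.4 to 9.33, 11.5 and 18.5 FPKM (−2.71 ± 0.26, adjusted p = 0.00033), which with annotated transcripts alone was not called (adjusted p = 0.07). Of 18 glial genes 6 could be named, 3 reached 1 FPKM in all libraries of a group, and 1 of these rose. Aldoc, the aldolase of astrocytes, was at 22.7, 15.6 and 9.19 FPKM in the NPCs and 6.65, 8.48 and 4.35 in the MSCs (1.16 ± 0.33, adjusted p = 0.031), a call lost under 7 of 17 alternative settings, among them annotated transcripts alone and leaving out any of 4 of the 6 libraries. S100b was at 80.9, 144 and 143 and 92.5, 102 and 92.2 FPKM and was not called, nor was Mog. Of the 10 neural progenitor and 7 neuronal genes that could be named, the single one called as risen was Hes3, a repressor of the Hes family, at 1.21, 0.860 and 2.05 FPKM in the NPCs and 0, 0.0529 and 0.119 in the MSCs (3.16 ± 0.44, adjusted p = 0.0017). Prom1 (CD133), a progenitor surface protein named by ID order, fell from 0.655, 0.482 and 0.639 to 0.0130, 0.0201 and 0.0277 FPKM (−2.55 ± 0.27, adjusted p = 0.00054), a call lost with a pseudocount of 1. With 10 of 24 progenitor, 7 of 26 neuronal and 6 of 18 glial genes named, the label could be checked only in part, and NPC is used here as the name of the group. Over annotated transcripts alone Hes1 was called as risen, at a log2 fold change of 1.10 (adjusted p = 0.035).

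Markers of other lineages differed in level. The 3 named osteoblast genes, the 3 adipocyte genes and the epithelial marker did not reach 1 FPKM in all libraries of either group. Among them Dmp1, a matrix protein of bone named by ID order, was at 3.40, 1.44 and 0.616 FPKM in the NPCs and 0.0187, 0.0736 and 0.0289 in the MSCs (3.46 ± 0.54, adjusted p = 0.0028). The adipocyte gene Cfd was also called as risen, by 2.08 ± 0.39 (adjusted p = 0.0063), and the osteoblast factor Dlx5 as fallen, by 1.29 ± 0.28 (adjusted p = 0.011), and both calls were lost with a pseudocount of 1. Chondrocyte genes were more abundant, the 5 that could be named summing to 102 to 148 FPKM in the NPC libraries and 306 to 408 in the MSC libraries. Of the 4 tested, Prg4 and Sox5 rose, Col11a1 fell and Sox9 was not called, and Sox5, at 14.3, 15.3 and 11 against 2.51, 2.45 and 2.51 FPKM (2.32 ± 0.18, adjusted p = 0.00015), lost its call over annotated transcripts alone (adjusted p = 0.96). Among 3 tested neural crest genes, Mitf and Snai1 rose by 1.22 ± 0.19 and 1.14 ± 0.27 (adjusted p = 0.0031 and 0.015). The call of Mitf was lost with annotated transcripts alone (adjusted p = 0.91) and that of Snai1 without NPC library 1 or MSC library 2.

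Ion channels and guidance molecules changed at low levels. Of 6 tested potassium, calcium and sodium channel genes, 4 rose and 2 fell, with a median of 2.13. Each of the 6 reached 1 FPKM in all libraries of a single group, which fixed its direction. The mechanosensitive background channel Kcnk2, named by ID order, fell from 7.72, 8.08 and 5.58 to 0.926, 0.876 and 3.87 FPKM (−2.23 ± 0.53, adjusted p = 0.015). Its relative Kcnk4 rose from 0.194, 0.203 and 0.183 to 2.42, 2.23 and 2.86 (3.09 ± 0.24, adjusted p = 0.00015), and Kcne4, a modulatory subunit, by 2.03 ± 0.24 (adjusted p = 0.0009). Over annotated transcripts alone Kcnk2 and Kcnk4 were not called (adjusted p = 0.087 and 0.6), and Kcnk2 also lost its call without NPC library 1. Of 5 tested semaphorin and ephrin genes, none named by ID order, 3 rose and 1 fell. The 3 that rose reached 1 FPKM in all libraries of the NPCs alone, which fixed their direction. The axon guidance ligands Sema5a and Sema3a were at 5.88, 4.28 and 3.55 and 3.66, 2.80 and 2.73 FPKM in the NPCs and under 0.3 in each MSC library. Their log2 fold changes were 4.71 ± 0.27 and 3.12 ± 0.25 (adjusted p = 4.9e-05 and 0.00018). Sema6d rose by 3.31 ± 0.48 (adjusted p = 0.0021), and Efnb2, a membrane-bound guidance ligand, fell from 5, 5 and 6.92 to 1.49, 1.35 and 2.38 FPKM (−1.73 ± 0.30, adjusted p = 0.0046). Over annotated transcripts alone neither was called, and Efnb2 was at 1.09 (adjusted p = 0.46 and 0.72). Sema4g was not called.

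Outside the lists, the rule for named genes took in several abundant genes. Cilp, a cartilage matrix protein, was at 152, 246 and 98.4 FPKM in the NPCs and 2.37, 2.47 and 3.35 in the MSCs (5.72 ± 0.33, adjusted p = 4.6e-05). Ccdc80, a secreted matrix protein named by ID order, fell from 535, 578 and 726 to 101, 130.3 and 126 FPKM (−2.43 ± 0.21, adjusted p = 0.00024). The calcium-binding proteins S100a6 and S100a11 fell by 1.82 ± 0.21 and 3.31 ± 0.31 (adjusted p = 0.00076 and 0.00032), and S100a6 was still at 1024, 1289 and 1637 FPKM in the NPCs against 4404, 4527 and 4159 in the MSCs. Atp1b1, a subunit of the sodium pump named by ID order, fell from 24.2, 24.2 and 26.7 to 1.02, 1.27 and 1.22 FPKM (−4.37 ± 0.18, adjusted p = 1.4e-05), with very close values in each group. The proton channel gene Hvcn1, also named by ID order, was at 18.9, 15.3 and 22.2 FPKM in the NPCs and listed at 0 in all MSC libraries.

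The largest gains in FPKM belonged to genes that carry no symbol in the tables used, and were above that of any named gene. ENSRNOG00000005695, on chromosome 4 at 235113772 to 235117160, was at 22213, 20500.0 and 40768 FPKM in the NPCs and 6354, 7229 and 9616 in the MSCs (1.73 ± 0.34, adjusted p = 0.0073), and the third NPC library was highest. ENSRNOG00000043451, on chromosome 14 at 6653093 to 6658953, was at 6398, 5525 and 9174 and 1369, 1416 and 1236 (2.29 ± 0.23, adjusted p = 0.00041). Among unnamed genes that fell, ENSRNOG00000047931, on chromosome X at 28985069 to 28987071, was at 913, 1306 and 1145 and 3629.5, 3993 and 5510.3 FPKM (−2.02 ± 0.25, adjusted p = 0.0011). Positions are as deposited, on a build that no source used here gives.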

How the data were processed

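mRNA-seq libraries (TruSeq Stranded mRNA, 300 ng total RNA, single-end) of 3 NPC and 3 MSC samples were compared. The deposited values are FPKM per assembled transcript, which the authors made, per the labels, with CASAVA 1.8, bcl2fastq, TopHat, Bowtie2, Cufflinks and Cuffdiff. No source used here gives the genome build, and the files hold no counts, so depth was implied from the confidence intervals of the deposited FPKM. For each gene the FPKM were added up over its transcripts, unannotated isoforms included, and divided by a median-of-ratios size factor (0.89 to 1.06 over the libraries). Genes with at least 0.1 FPKM in 3 libraries and an annotated transcript of 300 bases were fitted, 13677 in all, with limma 3.58.1 (trend and robust, R 4.3.3) on log2(FPKM + 0.1). Fold changes are on that scale, which understates the change of low genes. Benjamini-Hochberg adjustment ran over all genes fitted, and 2936 (21.5%) were called, 1589 (11.6%) as risen and 1347 (9.85%) as fallen. Single values of 3 against 3 libraries cannot reach a permutation p under 0.1. In data simulated for this comparison over 13677 genes, 62 of 100 genes changed by 1.5 and 94 of 100 changed by 3 (log2) were recovered, with 11 unchanged genes called. Symbols came from the study's tables of gene IDs. Members and lists were chosen with earlier results of these data known. The named genes were the 10 largest rises and falls in FPKM and in fold change (at 10 FPKM or more in the higher group) and up to 6 members of each list. RefSeq promoters (GRCr8) were matched by symbol for 195 of 248 genes. A few genes are not reported here.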

Additional observations from a re-analysis of the deposited data

Results flagged for a closer look

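Single-exon unannotated transcripts lying within introns, which no comparison above used, held 4.07% ± 1.05 (SD, n = 3) of the implied reads of the NPC libraries and 0.84% ± 0.107 (SD, n = 3) of those of the MSC libraries. The NPC libraries ranged from 2.93 to 5.01% and the MSC libraries, the controls, from 0.76 to 0.962%, so that the groups did not overlap. The 3 libraries of cells that also received IGF-1 held 3.03 to 3.45%. The share drew attention because it is a signal in transcripts outside the gene values that stands above the control level. Its cause was not tested.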

How the results depend on the processing

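Each result was recomputed under 17 alternative settings. The counts of 1092 rises, 1051 falls and 152 called list members stayed within 1.5 times under all but the sum over annotated transcripts alone, which gave 383, 440 and 96. That fit held 8462 of the genes, and 428 of the rises and 256 of the falls were not in it. Of the remaining calls 309 rises and 399 falls were shared, and 4 falls were called as rises. With a pseudocount of 1 there were 775 rises and 885 falls. Leaving out each library in turn gave 929 to 1125 rises, 934 to 1182 falls and 145 to 158 called list members. With the replicate number as a block, 1074 genes rose, 1037 fell and 151 list members were called, and of the called genes named above Mt3 alone lost its call. The deviations of same-numbered libraries correlated at 0.0303, 0.115 and −0.000844. NPC libraries 1 and 2 correlated best with the MSC library of their own number, and NPC library 3 with MSC library 1 (0.0648). The labels do not tie the numbers to rats, so the numbers were not taken as pairs. Among called genes named above, 6 changed direction, all over annotated transcripts, Tnfaip3 to −1.56, Ptger4 to −1.02, Sox5 to −0.19, Col24a1 to 0.20, Efnb2 to 1.09 and Itgax to 1.14. Among uncalled ones, Hes1 turned to 1.10 over annotated transcripts, 0.00 without rescaling and lay between −0.36 and 0.20 when a library was left out, the log2 fold change of Pla2g4a lay between −0.15 and 0.24 in that case, and Ier3 turned to 0.27 and Ppard to −0.00 under quantile normalisation. The median over all fitted genes was 0.033, 0.0931 without rescaling and 0.00676 after quantile normalisation. The files hold no counts, so no count test was run and the precision of low genes could not be set from depth.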
